A study of Mus musculus with 10 samples.

Results

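The 9 genes of the Hedgehog pathway described here were followed in mouse embryonic stem cells (mESCs) with knockouts of 2 subunits of the histone deacetylase complex MiDAC. They were chosen by symbol as core members of the pathway, and comprise the ligand genes *Shh* and *Ihh*, the receptor and antagonist genes *Ptch1*, *Smo* and *Hhip*, the cytoplasmic inhibitor *Sufu* and the 3 transcription factor genes *Gli1*, *Gli2* and *Gli3*, that is, 9 of the 34591 genes in the table. The lines were wild type (WT) male C57/BL6 Bruce-4 mESCs, the clones D2A7 and D1E6 with a CRISPR/Cas9 knockout (KO) of *Dnttip1*, and the clones E2E8 and E2G7 with a KO of *Elmsan1*, the genes of the MiDAC subunits DNTTIP1 and ELMSAN1. Every KO line is a clone grown from a single sorted cell, every line was kept in 2iL medium (LIF, the GSK3β inhibitor CHIR 99021 and the MEK inhibitor PD 0325901), and total RNA of each line was sequenced in 2 libraries, giving 10 in all. The labels number the D2A7 and D1E6 clones in the reverse order of the series' design text, so the clone codes are used as names. The study calls the libraries of a line biological replicates. Where single lines are compared, p-values measure the spread between these libraries. Where a knockout is compared, the difference between its 2 clones enters the spread too. The 4 libraries of a knockout are then taken as independent, except where the correlation within clones is modelled.

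In the Hedgehog pathway, a secreted ligand such as Sonic hedgehog (SHH) or Indian hedgehog (IHH) binds the receptor Patched (PTCH1), which otherwise holds the membrane protein Smoothened (SMO) inactive. Active SMO, acting at the primary cilium, releases the GLI zinc finger factors from SUFU. GLI1 is an activator, GLI2 acts mostly as an activator, and GLI3 serves largely as a repressor after its processing. *Gli1*, *Ptch1* and *Hhip* are themselves widely used target genes of the pathway, and PTCH1 and HHIP, which binds the ligands, damp the signal. The pathway patterns the neural tube, the limb and other tissues of the embryo.

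Expression was measured as FPKM (fragments scaled to exon length and to the size of the library), which allows levels of genes of different length to be compared, and each library was divided by a factor close to 1 (0.965 to 1.01) set by the median gene. The libraries held 31098283 to 86464024 fragments. *Dnttip1* itself stood at 8.45 and 8.35 FPKM in the WT libraries, at 4.57 and 4.55 in D2A7 and at 2.58 and 2.60 in D1E6. *Elmsan1*, listed as *C130039O16Rik*, stood at 5.73 and 5.34 FPKM in WT and at 4.62 to 5.13 in the *Elmsan1* KO libraries, so these libraries lay below WT by a small amount (log2 change -0.19, adjusted p = 0.188). The study reports that the indels lead to a premature stop codon and that the KO clones lack the targeted protein entirely. It found no significant difference of *Elmsan1* mRNA between *Elmsan1* KO and WT. All 7 naive pluripotency markers examined were above 1 FPKM in every line, with summed levels of 1199 to 1244 FPKM in WT and 973 to 1197 FPKM in the KO libraries, whereas 0 of 6 fibroblast markers reached 1 FPKM in any line (summed 0.136 to 0.582 FPKM). Chromosomes 8 and 6 stood apart among the nuclear chromosomes. Relative to WT, the median gene of chromosome 8 was 1.26-fold to 1.29-fold higher in the 4 KO clones and that of chromosome 6 was 1.23-fold to 1.34-fold higher in D1E6, E2E8 and E2G7 but not in D2A7 (0.944-fold). The number of copies of either chromosome was not measured. The median of 21 mitochondrial genes was 1.36-fold and 1.25-fold that of WT in D2A7 and D1E6 and 0.899-fold and 0.959-fold in E2E8 and E2G7.

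Both ligand genes were near the limit of detection in every line. *Shh* (chr5:28783355-28793641 in NCBIM37, minus strand), which encodes the ligand of the neural tube and limb bud, gave 2 and 1 fragments in WT, 7 and 3 in D2A7, 2 and 1 in D1E6, 0 and 2 in E2E8 and 2 and 5 in E2G7. *Ihh* (chr1:74991891-74998246, minus strand), the ligand gene of cartilage and gut, gave 2 and 2 fragments in WT, 3 and 1 in D2A7, 11 and 9 in D1E6, 2 and 2 in E2E8 and 8 and 12 in E2G7. No library reached 0.1 FPKM for either gene, the highest values being 0.0418 FPKM for *Shh* and 0.0920 FPKM for *Ihh*, so neither passed the filter of at least 0.1 FPKM in at least 2 libraries and neither was tested in the main fits. The count of 0 for *Shh* in the first E2E8 library allows up to 3 fragments.

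The *Ihh* fragments were unevenly spread over the clones. Per 1000000 fragments, they amounted to 0.0580 in WT (95% Poisson interval 0.0158 to 0.148), 0.0347 in D2A7 (0.00945 to 0.0888) and 0.0280 in E2E8 (0.00763 to 0.0717). In D1E6 they amounted to 0.181 (0.110 to 0.279) and in E2G7 to 0.120 (0.0731 to 0.185). The intervals cover counting error only. The lowest library of D1E6 and E2G7 thus had more *Ihh* fragments than the highest of D2A7 and E2E8, at a level of 0.0403 FPKM or more against 0.0196 FPKM or less, and all of these levels are below 0.1 FPKM. With the filter left out, limma called *Ihh* lower in D2A7 than in D1E6 (log2 difference -0.62, adjusted p = 0.00611) but not in E2E8 against E2G7 (-0.41, adjusted p = 0.0319). When the fragments were tested with voom, an alternative chosen after the data were seen, *Ihh* was lower in D2A7 than in D1E6 (log2 difference -2.19, adjusted p = 0.00678) and lower in E2E8 than in E2G7 (-1.84, adjusted p = 0.0154). Against WT, *Ihh* was called in no clone by either test. The voom changes were 1.34 in D1E6 (adjusted p = 0.0870), 0.76 in E2G7 (0.338), -0.85 in D2A7 (0.260) and -1.07 in E2E8 (0.222). Without the filter, limma gave 0.49 in D1E6 (adjusted p = 0.0190), below 1.5-fold.

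**Figure D1:**
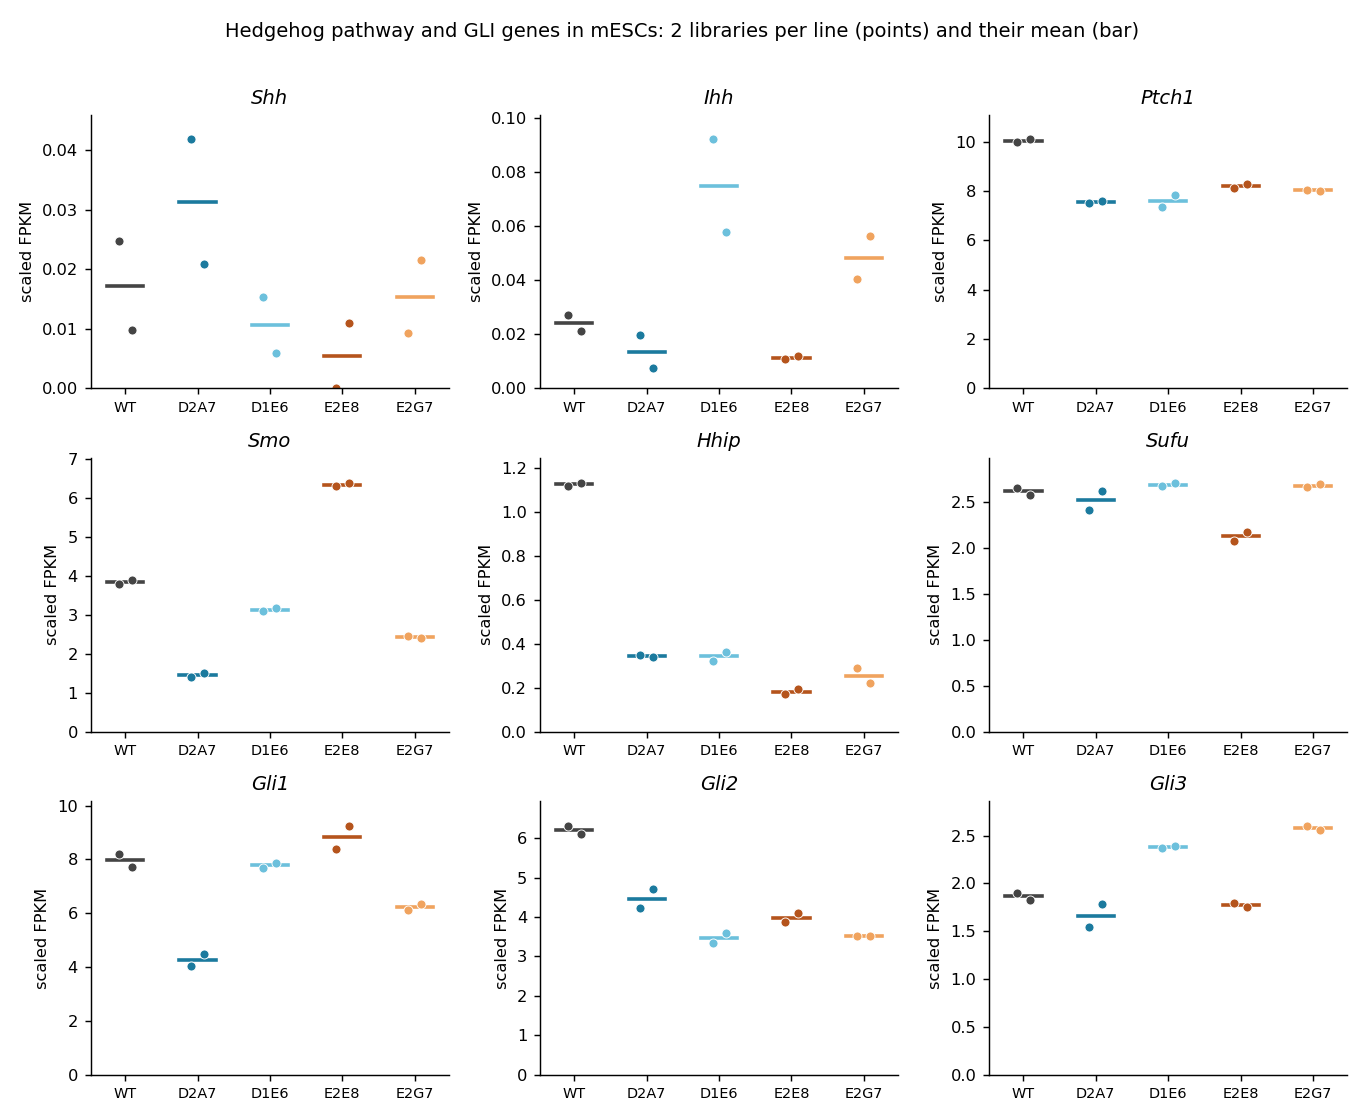
FPKM of the 9 genes after scaling of the libraries, with a panel for each gene and its own vertical axis starting at 0; points are the 2 libraries of a line and the short bar is their mean. *Hhip*, *Gli2* and *Ptch1* lie below WT in all 4 KO clones, *Smo* and *Gli1* differ between clones of the same knockout, and *Shh* and *Ihh* stay under 0.1 FPKM.

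The other 7 genes were expressed and were tested in every comparison. In WT mESCs, *Ptch1* was the most abundant (10.1 FPKM ± 0.0665, SD, n = 2), followed by *Gli1* (7.98 ± 0.337), *Gli2* (6.20 ± 0.152), *Smo* (3.83 ± 0.0781), *Sufu* (2.62 ± 0.0519), *Gli3* (1.87 ± 0.0542) and *Hhip* (1.12 ± 0.0105). The libraries of neighbouring genes in this order did not overlap. The order changed in the KO clones. In D2A7, *Gli1* (4.03 and 4.50 FPKM) and *Gli2* (4.22 and 4.70 FPKM) overlapped and *Smo* fell below *Gli3*. In D1E6, *Gli1* and *Ptch1* overlapped, and in E2E8 both *Gli1* libraries (8.39 and 9.24 FPKM) were above both *Ptch1* libraries (8.13 and 8.28 FPKM).

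A gene was called changed when it differed at least 1.5-fold with an unadjusted p under 0.01 in limma, the rule of the study's methods. Of the 7 genes tested, 2 were called in *Dnttip1* KO against WT (4 libraries against 2), where 6.51% of all 17434 genes tested were called. The same number was called in *Elmsan1* KO against WT, where 6.43% of 17212 were. These were *Hhip* and *Gli2* in both comparisons, both lower, while 3.25% and 3.68% of all genes were called lower and 3.26% and 2.74% were called higher. Lower calls in both comparisons were made for 1.59% of the 16882 genes tested in both. The comparisons share the 2 WT libraries and are therefore not independent of each other. *Hhip*, *Gli2* and *Ptch1* were the genes whose 8 KO libraries all lay below both WT libraries, 3 of 7, against 12.8% of all genes.

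*Hhip* (chr8:82490014-82581905, minus strand), which encodes the membrane-bound protein that sequesters Hedgehog ligands, had the largest change of the 7 genes in each knockout. It stood at 1.12 and 1.13 FPKM in WT, 0.348 and 0.337 in D2A7, 0.320 and 0.362 in D1E6, 0.169 and 0.193 in E2E8 and 0.287 and 0.220 in E2G7. No KO library overlapped WT, and the *Elmsan1* KO libraries were all below the *Dnttip1* KO libraries. Relative to the WT mean, the *Dnttip1* KO mean was 30.4% and the *Elmsan1* KO mean 19.3%. On the scale log2(FPKM + 0.1), which understates changes of low genes, *Hhip* fell by 1.47 (SE 0.136, adjusted p = 0.00519) in *Dnttip1* KO and by 1.96 (SE 0.197, adjusted p = 0.00500) in *Elmsan1* KO. The values rest on 164 and 212 fragments in the WT libraries and on 63 to 113 in the KO libraries. With the correlation between libraries of a clone in the model, both calls were kept, at adjusted p = 0.0898 and 0.0979.

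The low level of *Hhip* went against its chromosome. In each clone it fell by at least 1.47 on the log2 scale while the median gene of chromosome 8 was higher by 0.34 to 0.36. It was set beside the 615 other genes of this chromosome with at least 1 FPKM in every library. That filter leaves out genes that fell under 1 FPKM, as *Hhip* itself did in the clones, so they could not be counted. Of the 615, 0 fell further than *Hhip* in D2A7, E2E8 and E2G7 and 1 did in D1E6. The 3 genes of the 615 within 500000 bases of *Hhip* were all higher than in WT in all 4 clones, by 0.05 to 0.52. With chromosome medians centred, *Hhip* fell by 1.74 in *Dnttip1* KO and by 2.19 in *Elmsan1* KO.

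*Gli2* (chr1:120730709-120950196, minus strand), the main activating GLI factor of the neural tube, was lower in every clone. It stood at 6.31 and 6.09 FPKM in WT, 4.22 and 4.70 in D2A7, 3.34 and 3.59 in D1E6, 3.87 and 4.10 in E2E8 and 3.51 and 3.52 in E2G7. No KO library overlapped WT, and D2A7 was the clone closest to it. *Gli2* fell by 0.65 on the log2 scale in *Dnttip1* KO (SE 0.147, adjusted p = 0.0479), to 63.9% of the WT mean, and by 0.71 in *Elmsan1* KO (SE 0.0942, adjusted p = 0.00945), to 60.5%. The call in *Dnttip1* KO was lost when the correlation between libraries of a clone was modelled (adjusted p = 0.231), whereas that in *Elmsan1* KO was kept at an adjusted p of 0.124. It was also lost in *Dnttip1* KO when either WT library (log2 changes of -0.62 and -0.67) or either D1E6 library (-0.57 and -0.60) was left out.

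*Ptch1* (chr13:63610261-63674474, minus strand), which encodes the ligand receptor and is a target gene of the pathway, was lower by a small and even amount. It stood at 10.0 and 10.1 FPKM in WT, 7.53 and 7.62 in D2A7, 7.37 and 7.85 in D1E6, 8.13 and 8.28 in E2E8 and 8.06 and 8.02 in E2G7. All 8 KO libraries lay below WT and within 1 FPKM of each other. The log2 change was -0.40 in *Dnttip1* KO (SE 0.0562, adjusted p = 0.0138) and -0.30 in *Elmsan1* KO (SE 0.0555, adjusted p = 0.0225), that is, 1.32-fold and 1.24-fold, so *Ptch1* passed an adjusted p of 0.05 in both but not the fold needed for a call. With the correlation between libraries of a clone in the model, the adjusted p was 0.166 and 0.268.

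*Smo* (chr6:29685694-29711365, plus strand), the signal transducer that PTCH1 restrains, split the clones of each knockout. It stood at 3.77 and 3.89 FPKM in WT, 1.40 and 1.5 in D2A7, 3.09 and 3.16 in D1E6, 6.29 and 6.38 in E2E8 and 2.45 and 2.41 in E2G7. E2E8 was above WT, the other clones were below it, and the libraries of no 2 lines overlapped. The E2E8 mean was 4.35 times the D2A7 mean. The pooled comparisons made no call, with log2 changes of -0.81 (SE 0.377, adjusted p = 0.227) in *Dnttip1* KO and 0.04 (SE 0.469, adjusted p = 0.970) in *Elmsan1* KO. With chromosome medians centred, *Smo* was called lower in *Dnttip1* KO (-0.98, adjusted p = 0.0511), which made 3 of 7 genes called there, and its change in *Elmsan1* KO was -0.30 (adjusted p = 0.719).

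**Figure D2:**
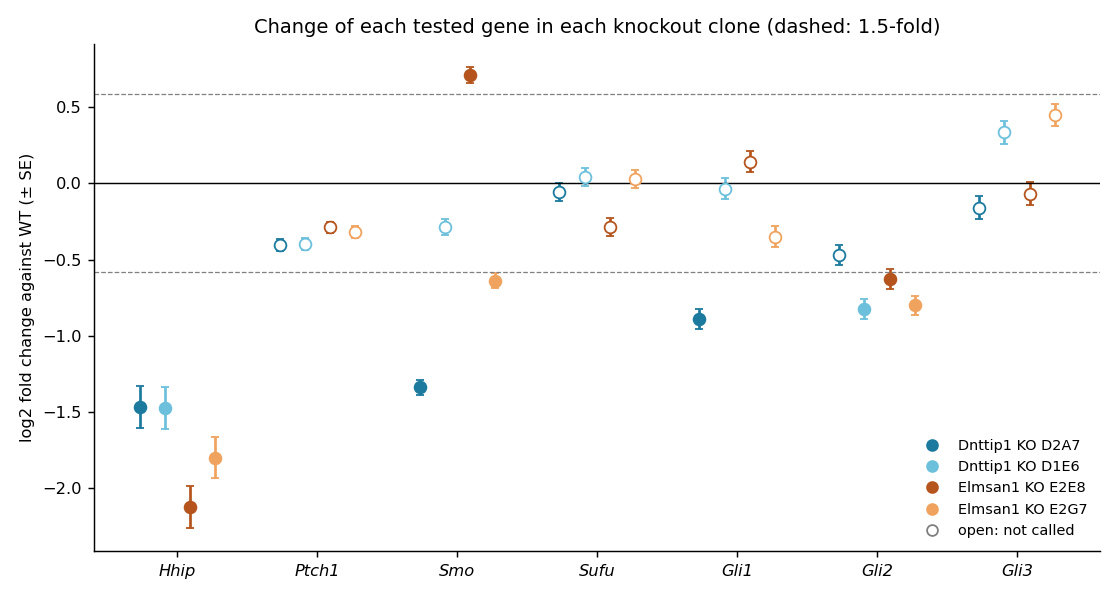
Log2 fold change against WT, with its SE, of the 7 tested genes in each clone (2 libraries against 2, from the fit over all 10 libraries); filled points were called, open points were not, and dashed lines mark 1.5-fold. *Hhip* and *Gli2* are below 0 in all 4 clones, *Ptch1* is below 0 by 0.29 to 0.40, and *Smo* runs from -1.34 in D2A7 to 0.71 in E2E8.

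Because of this split each clone was also compared with WT by itself, 2 libraries against 2, in a single fit with a mean for each line. In this fit 3 of the 7 genes were called in D2A7 (*Hhip*, *Smo* and *Gli1*, all lower), where 16.3% of the 17868 genes tested were called, and 2 were called in D1E6 (*Hhip* and *Gli2*, both lower), against 11% of all genes. In E2E8, *Hhip* and *Gli2* were called lower and *Smo* higher, 3 of 7 against 16.1%. In E2G7, *Hhip*, *Gli2* and *Smo* were called lower, 3 of 7 against 9.95%. *Hhip* was called lower in all 4 clones, as 1.43% of all genes were, and *Gli2* in 3, its change in D2A7 being -0.47 (SE 0.0644, adjusted p = 0.000690), below the 1.5-fold limit.

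The clones of a knockout were then compared with each other. *Smo* was lower in D2A7 than in D1E6 (log2 difference -1.05, SE 0.0515, adjusted p = 5.36e-06), and it was 1.35 higher in E2E8 than in E2G7 (SE 0.0515, adjusted p = 3.78e-06). *Gli1* was lower in D2A7 than in D1E6 (-0.85, SE 0.0673, adjusted p = 4.42e-05). These made 2 of 7 genes called between the *Dnttip1* KO clones, against 13.1% of all genes, and 1 of 7 between the *Elmsan1* KO clones, against 12.5%.

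*Smo* lies on chromosome 6, and whether the shift of that chromosome acts on it was not tested. The change of *Smo* in D1E6 (-0.28) and E2G7 (-0.64) went against the raised median of chromosome 6 in these clones (0.43 and 0.30). Its change in E2E8 (0.71) went the same way as the median there (0.39), and in D2A7 (-1.34) the median was -0.08. The 11 genes with at least 1 FPKM in every library within 500000 bases of *Smo* had a median change of 0.05 in D2A7, 0.43 in D1E6, 0.46 in E2E8 and 0.29 in E2G7. Of the 503 other such genes of the chromosome, 4 fell further than *Smo* in D2A7, 19 in D1E6 and 5 in E2G7, while 422 were lower than *Smo* in E2E8. Genes that fell under 1 FPKM are again left out of these counts. With chromosome medians centred, the rise in E2E8 was 0.33 and no longer 1.5-fold, *Smo* was called lower in D1E6 (-0.70, adjusted p = 7.38e-05), and the difference between D2A7 and D1E6 was -0.57 and no longer 1.5-fold. The difference between E2E8 and E2G7 was then 1.26 (adjusted p = 6.33e-06).

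**Figure D3:**
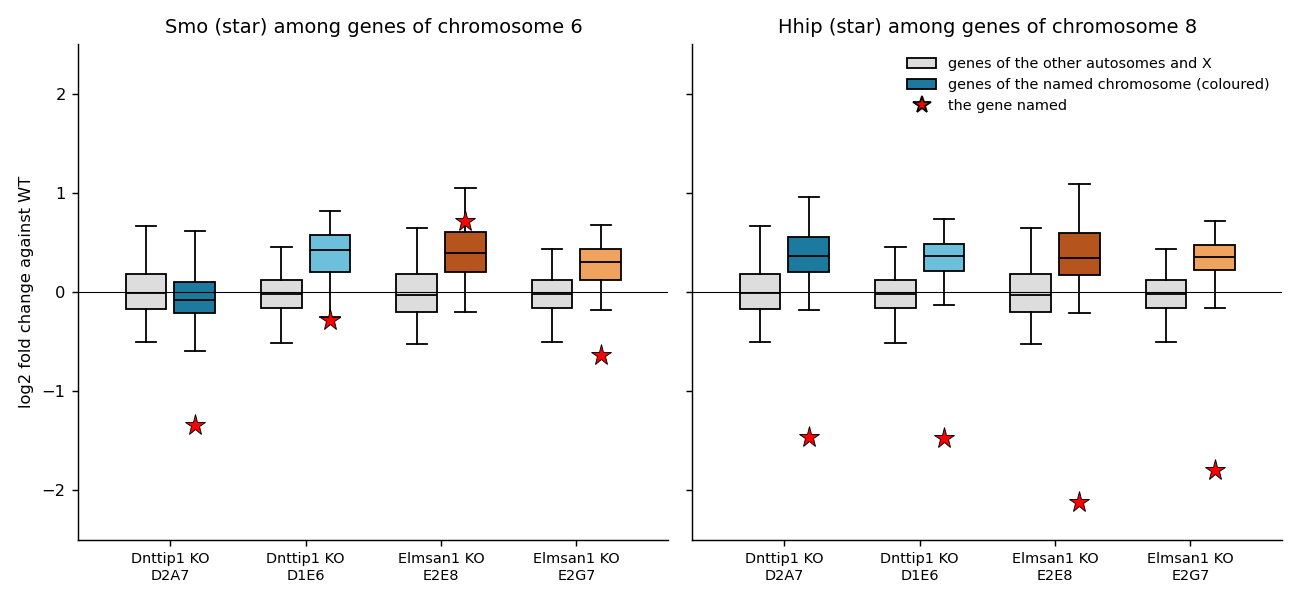
Log2 fold change against WT in each clone of *Smo* among genes of chromosome 6 (left) and of *Hhip* among genes of chromosome 8 (right), for genes at 1 FPKM or more in every library. Genes that fell under 1 FPKM are thus not in the boxes, while *Hhip* itself is under 1 FPKM in the clones. Boxes show quartiles, lines inside them medians and whiskers the 5th and 95th percentiles, grey for the other autosomes and X, coloured for the named chromosome, and stars mark the gene. Stars for *Hhip* lie below the whiskers in all 4 clones, and those for *Smo* below them in D2A7, D1E6 and E2G7 and within them in E2E8.

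*Gli1* (chr10:126766945-126778645, minus strand), the activator whose RNA is a common readout of the pathway, was called in 1 clone. It stood at 8.21 and 7.74 FPKM in WT, 4.03 and 4.50 in D2A7, 7.67 and 7.88 in D1E6, 8.39 and 9.24 in E2E8 and 6.13 and 6.34 in E2G7. D1E6 overlapped WT, E2E8 was above it and E2G7 below it. In D2A7 *Gli1* fell by 0.89 on the log2 scale (SE 0.0673, adjusted p = 3.40e-05), to 53.5% of the WT mean. The change in E2G7 was -0.35 (adjusted p = 0.00475), and the pooled changes were -0.46 (adjusted p = 0.382) in *Dnttip1* KO and -0.10 (adjusted p = 0.750) in *Elmsan1* KO. *Gli1* shares 55 of its 3782 exon bases with *Arhgap9* on the other strand. *Arhgap9* was higher than in WT by 1.07 in D2A7, 0.51 in D1E6, 0.87 in E2E8 and 0.20 in E2G7, so its rise was not limited to the clone with low *Gli1*. The libraries were stranded, but whether the counting used the strand is not given in the sources used here.

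*Gli3* (chr13:15555068-15821859, plus strand), the GLI factor that mostly represses, was called in no comparison with WT. It stood at 1.90 and 1.83 FPKM in WT, 1.54 and 1.78 in D2A7, 2.37 and 2.39 in D1E6, 1.79 and 1.76 in E2E8 and 2.60 and 2.56 in E2G7. D1E6 and E2G7 were above WT, by 0.34 (adjusted p = 0.00913) and 0.45 (adjusted p = 0.00247) on the log2 scale, and the changes in D2A7 and E2E8 were -0.16 and -0.07 (adjusted p = 0.114 and 0.484). Between clones, *Gli3* was lower in D2A7 than in D1E6 (-0.49, adjusted p = 0.00124) and lower in E2E8 than in E2G7 (-0.51, adjusted p = 0.00102), each just under 1.5-fold. D1E6 and E2G7 were thus the clones with the higher levels of both *Gli3* and *Ihh*.

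*Sufu* (chr19:46471386-46563294, plus strand), the inhibitor that holds GLI proteins in the cytoplasm, was called in no comparison. It stood at 2.65 and 2.58 FPKM in WT, 2.42 and 2.62 in D2A7, 2.67 and 2.71 in D1E6, 2.08 and 2.17 in E2E8 and 2.66 and 2.69 in E2G7. E2E8 was the clone with both libraries below WT, with a log2 change of -0.29 (SE 0.0588, adjusted p = 0.00444), which is 1.23-fold between the means. The pooled changes were -0.01 (SE 0.0898, adjusted p = 0.965) in *Dnttip1* KO and -0.13 (SE 0.141, adjusted p = 0.593) in *Elmsan1* KO.

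In the direct comparison of the knockouts, 4 libraries against 4, limma called 0 of the 7 genes, while 1.52% of 17588 genes were called. At an unadjusted p under 0.05, 1 of the 7 passed, *Hhip*, as 15.8% of all genes did. On the log2 scale it was 0.49 higher in *Dnttip1* KO than in *Elmsan1* KO (SE 0.162, adjusted p = 0.296 in limma). It was also the 1 gene called by voom on fragments (0.68, adjusted p = 0.296). The spread between clones entered this comparison, as the values for *Smo* show: 1.40 to 3.16 FPKM in *Dnttip1* KO and 2.41 to 6.38 FPKM in *Elmsan1* KO.

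The balance of the GLI genes was followed as ratios within a library, which the scaling of libraries cannot alter. *Gli2* stood at 3.31 and 3.33 times *Gli3* in WT, 2.73 and 2.63 times in D2A7, 1.41 and 1.5 times in D1E6, 2.15 and 2.33 times in E2E8 and 1.35 and 1.37 times in E2G7. All 8 KO libraries had a lower ratio of *Gli2* to *Gli3* than either WT library. The exact two-sided permutation test of 4 libraries against 2, whose smallest possible p is 0.0667 and which therefore cannot pass 0.05, gave p = 0.133 for *Dnttip1* KO (mean 2.07 ± 0.712, n = 4) and p = 0.0667 for *Elmsan1* KO (1.80 ± 0.513, n = 4), against 3.32 ± 0.0150 in WT (n = 2). The share of *Gli3* in the summed GLI FPKM was 11.6% and 11.7% in WT, 15.8% to 17.7% in *Dnttip1* KO and 11.6% to 21.2% in *Elmsan1* KO. The second E2E8 library (11.6%) was thus at the WT level. *Gli1*, whose product is also an activator, is not in the ratio of *Gli2* to *Gli3*. Its share was 50.0% and 49.4% in WT, 41.1% and 41.0% in D2A7, 57.3% and 56.9% in D1E6, 59.7% and 61.2% in E2E8 and 50.0% and 51.0% in E2G7. The sum itself was 15.7 and 16.4 FPKM in WT and lower in every KO library, at 9.79 to 13.9 FPKM in *Dnttip1* KO and 12.2 to 15.1 FPKM in *Elmsan1* KO (exact permutation p = 0.133 for each). In all, 12 such tests were made on shares, ratios and sums of the GLI genes, and none passed 0.05 after adjustment (lowest adjusted p = 0.2).

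**Figure D4:**
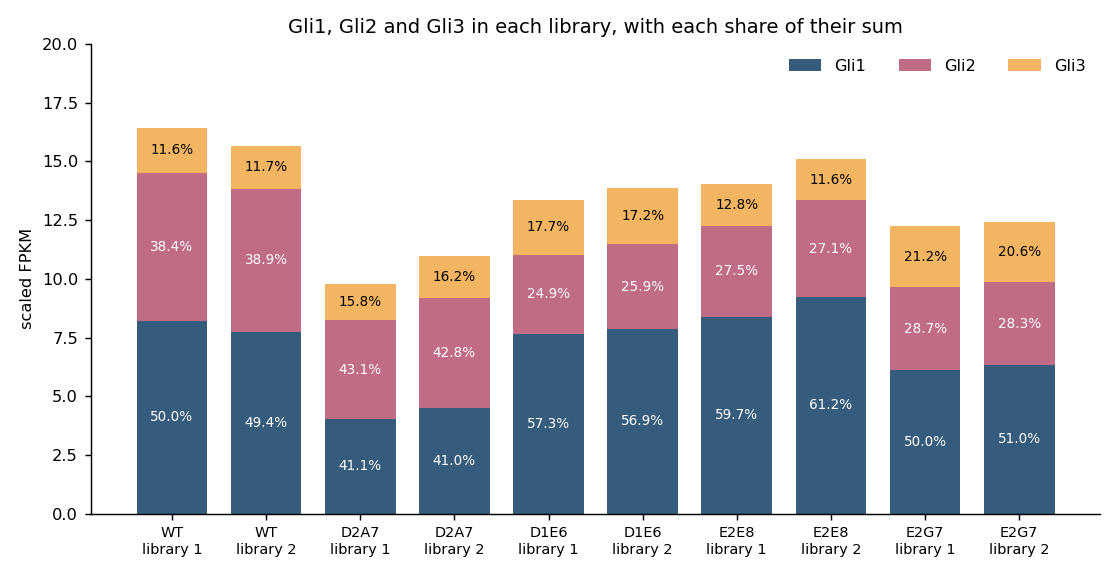
Stacked bars of *Gli1*, *Gli2* and *Gli3* in scaled FPKM for each of the 10 libraries, with each gene's share of the sum printed in its segment. The share of *Gli2* is 38.4% and 38.9% in WT, 42.8% and 43.1% in D2A7 and 24.9% to 28.7% in the other clones.

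How the 7 genes varied together over the 10 libraries is described by Pearson correlations of log2(FPKM + 0.1), whose points share lines and controls. *Hhip*, *Gli2* and *Ptch1* correlated with each other at 0.80 to 0.85, and *Smo* with *Gli1* at 0.93. Pairs with 1 gene from each of these sets ran from -0.04 (*Smo* and *Hhip*) to 0.46 (*Gli1* and *Ptch1*). *Gli3* and *Sufu* correlated with each other at 0.60, *Gli3* with *Gli2* at -0.56 and *Sufu* with *Smo* at -0.57. Of the 12214 other genes averaging 1 FPKM or more, the most like *Smo* were *Hormad1* (0.996), *Soat1* (0.995) and *Tspan31* (0.993), on chromosomes 3, 1 and 10. Those most like *Gli1* were *Slc29a1* (0.990), *Stk10* (0.989) and *Tpi1* (0.985). Those most like *Gli2* were *Gpr125* (0.982), *C330008G21Rik* (0.981) and *Net1* (0.980), of which *C330008G21Rik* fell from a mean of 17.5 FPKM in WT to between 0.411 and 1.57 FPKM in the clones. For *Ptch1* they were *Stt3b*, *Pnpt1* and *Ugt8a* (0.978 to 0.981), for *Sufu* *Arid5b*, *Aatf* and *BC027231* (0.972 to 0.987), and for *Gli3* *Smad5*, *Tuba4a* and *Ppip5k2* (0.971 to 0.973).

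The sequences before the starts of the 3 genes that were low in all clones and of *Smo*, which divided them, are shown to compare their composition. They are the 250 bases before each start in RefSeq (build GRCm38.p6, a later build than that of the table), 5′ to 3′ along the gene, and capitals mark the GC box GGGCGG on either strand, a motif bound by Sp1-like factors. They lie at chr8:80058009-80058258 (minus strand) for *Hhip*, chr1:119053620-119053869 (minus strand) for *Gli2*, chr13:63565736-63565985 (minus strand) for *Ptch1* and chr6:29735247-29735496 (plus strand) for *Smo*.
Hhip: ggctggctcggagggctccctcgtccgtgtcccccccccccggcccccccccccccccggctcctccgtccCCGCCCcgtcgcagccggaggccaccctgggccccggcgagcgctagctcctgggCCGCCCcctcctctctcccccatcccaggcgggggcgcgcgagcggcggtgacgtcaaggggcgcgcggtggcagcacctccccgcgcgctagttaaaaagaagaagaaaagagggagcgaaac
Gli2: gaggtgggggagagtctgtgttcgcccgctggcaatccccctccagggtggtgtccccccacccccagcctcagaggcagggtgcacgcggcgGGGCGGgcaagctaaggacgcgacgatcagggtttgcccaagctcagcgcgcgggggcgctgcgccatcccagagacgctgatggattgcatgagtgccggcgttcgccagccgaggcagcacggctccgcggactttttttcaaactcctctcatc
Ptch1: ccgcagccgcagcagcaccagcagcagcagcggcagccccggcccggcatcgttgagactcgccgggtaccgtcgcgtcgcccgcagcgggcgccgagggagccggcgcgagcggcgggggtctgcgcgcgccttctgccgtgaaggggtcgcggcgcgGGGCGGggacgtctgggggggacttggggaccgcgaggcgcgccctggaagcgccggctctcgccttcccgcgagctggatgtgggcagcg
Smo: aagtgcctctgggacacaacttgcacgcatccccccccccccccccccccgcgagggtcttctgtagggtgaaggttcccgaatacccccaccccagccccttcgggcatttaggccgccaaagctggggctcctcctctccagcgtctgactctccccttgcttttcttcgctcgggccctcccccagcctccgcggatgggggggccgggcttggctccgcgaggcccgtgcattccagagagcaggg

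All 4 windows were rich in G and C, at 76% for *Hhip*, 67.2% for *Gli2*, 78.4% for *Ptch1* and 68.4% for *Smo*, against a median of 52.4% over all 32851 windows of this length in the table. *Ptch1* held 41 CpG and *Hhip* 28, against a median of 6. The GC box was found at 2 places before *Hhip*, at 1 before *Gli2* and *Ptch1* each, and not before *Smo*, while 32.7% of all windows hold it. It was also before *Ihh* (2 places), *Gli3* (2) and *Sufu* (1), which were not low in all clones. In all, 6 of the 7 genes with a window had it. The consensus GLI site GACCACCCA, searched on both strands, was in none of the windows of the 7 genes that the table lists (*Gli1* and *Shh* are not among them) and in 0.225% of all windows. Its core ACCACCC, which lies within that site, was in the *Gli2* window, 198 bases before the start, and in 3.92% of all windows. A match is a description of these letters and was not tested as a binding site.

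The rest of the pathway was examined through 48 genes in 6 lists. In *Dnttip1* KO, 36 of them were tested, of which 4 were called lower and 2 higher (16.7%, against 6.51% of all genes). In *Elmsan1* KO, 37 were tested, of which 4 were called lower and 0 higher (10.8%, against 6.43%). Their median log2 changes were -0.11 and -0.07, and those of all genes 0.02 and 0.00. By clone, 13 of the 37 were called in D2A7 (35.1%, against 16.3% of all genes), 7 in D1E6 (18.9%, against 11%), 7 in E2E8 (18.9%, against 16.1%) and 6 in E2G7 (16.2%, against 9.95%), so the share in E2E8 was close to that of all genes. An unadjusted p under 0.05, counted below for lists with no call, was reached by 27.3% of all genes in *Dnttip1* KO and 27.8% in *Elmsan1* KO.

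Among genes for the making and release of ligands, 1 of 4 tested fell and 1 rose in *Dnttip1* KO and 0 of 5 were called in *Elmsan1* KO, by limma or voom, with 0 at an unadjusted p under 0.05. *Scube3*, whose secreted product belongs to a family that helps release Hedgehog ligands, stood at 1.5 and 1.48 FPKM in WT, 4.92 and 5.29 in D2A7, 2.75 and 2.93 in D1E6, 1.60 and 1.81 in E2E8 and 2.20 and 2.36 in E2G7. All KO libraries were above WT. *Scube3* rose by 1.30 on the log2 scale in *Dnttip1* KO (SE 0.299, adjusted p = 0.0491), and its change in *Elmsan1* KO was 0.38 (adjusted p = 0.209). *Hhat*, the acyltransferase that adds palmitate to the ligand, was the gene that fell in *Dnttip1* KO, by 0.98 (adjusted p = 0.0172). It was chosen for mention after its values were seen, is under 1 FPKM, and was at the WT level in E2E8 (0.712 and 0.730 FPKM, against 0.635 and 0.720 in WT).

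Of the 4 co-receptor genes (*Boc*, *Cdon*, *Gas1* and *Lrp2*), all were tested and 0 were called in either knockout. Their log2 changes ran from 0.11 to 0.57 in *Dnttip1* KO and from -0.07 to 0.39 in *Elmsan1* KO, and 1 of them in each knockout had an unadjusted p under 0.05. By voom on fragments 1 and 0 were called. Of 12 genes for the cilium and the relay from SMO to GLI, 0 were called in *Dnttip1* KO (2 at an unadjusted p under 0.05, 0 by voom) and 1, *Stk36*, fell in *Elmsan1* KO. *Stk36*, the vertebrate relative of the fly kinase Fused, stood at 1.40 and 1.42 FPKM in WT, 1.56 and 1.57 in D2A7, 0.907 and 0.748 in D1E6, 0.661 and 0.791 in E2E8 and 0.872 and 0.929 in E2G7, so D2A7 was the clone that was not low. It fell by 0.73 in *Elmsan1* KO (SE 0.163, adjusted p = 0.0397). *Evc* and *Evc2*, neighbouring genes on chromosome 5 whose products form a ciliary complex with SMO, were called lower in D2A7 (log2 changes of -0.80 and -0.85), where *Gpr161*, whose product restrains the pathway at the cilium, was called higher (0.71). These 3 were the cilium genes called in D2A7 and are named after their values were seen. Of 8 genes for kinases and ubiquitin ligases that act on GLI proteins, among them *Gsk3b*, whose product is inhibited in this medium, 0 were called in either knockout or in any clone against WT, while 3 had an unadjusted p under 0.05 in each knockout. In the clones 4 to 6 did, where 47% to 57.8% of all genes did. Voom also called 0.

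Of 11 genes known as Hedgehog targets in other tissues, 4 were expressed enough to test. The 7 not tested included *Foxa2*, *Nkx2-2* and *Nkx6-1*, which are among the targets in the ventral neural tube. *Ccnd1*, which encodes cyclin D1, stood at 54.7 and 54.5 FPKM in WT, 28.4 and 27.0 in D2A7, 37.2 and 37.7 in D1E6, 31.5 and 31.2 in E2E8 and 37.5 and 37.5 in E2G7. Every KO library was below WT, and *Ccnd1* fell by 0.76 in *Dnttip1* KO (SE 0.158, adjusted p = 0.0385) and by 0.67 in *Elmsan1* KO (SE 0.0980, adjusted p = 0.0127). *Ccnd2*, which encodes cyclin D2 and is named after its values were seen, fell from 0.509 and 0.587 FPKM in WT to 0.147 FPKM or less in all KO libraries, with calls in both knockouts and all 4 clones. *Olig2*, a target gene of motor neuron progenitors, stood at 27.2 and 23.4 FPKM in WT, 27.3 and 28.0 in D2A7, 17.5 and 17.7 in D1E6, 13.6 and 14.5 in E2E8 and 19.0 and 18.9 in E2G7. It fell in *Elmsan1* KO by 0.63 (SE 0.164, adjusted p = 0.0626). D2A7, in contrast, was not below WT.

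Of the GLI-related zinc finger genes (of the *Glis* and *Zic* families), 4 of 7 were tested, with 1 lower and 1 higher in *Dnttip1* KO and 0 called in *Elmsan1* KO, where 3 had an unadjusted p under 0.05 and voom also called 0. *Zic2*, a factor of the early neural plate and forebrain, stood at 12.5 and 11.2 FPKM in WT, 5.87 and 5.86 in D2A7, 8.08 and 8.69 in D1E6, 7.30 and 7.78 in E2E8 and 8.31 and 8.03 in E2G7, and fell by 0.74 in *Dnttip1* KO (SE 0.190, adjusted p = 0.0634). In *Elmsan1* KO its change was -0.58 (adjusted p = 0.0108), below 1.5-fold. *Glis2* stood at 4.73 and 4.55 FPKM in WT and above it in every KO library, at 7.54 to 8.76 in the *Dnttip1* KO clones, 5.60 and 5.58 in E2E8 and 9.02 and 9.23 in E2G7. It rose by 0.81 in *Dnttip1* KO (SE 0.0816, adjusted p = 0.00600), and its change in *Elmsan1* KO was 0.61 (adjusted p = 0.171). In D2A7, *Zic2* and *Zic5*, the latter named after its values were seen, were both called lower, with log2 changes of -1.0 and -1.07.

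**Figure D5:**
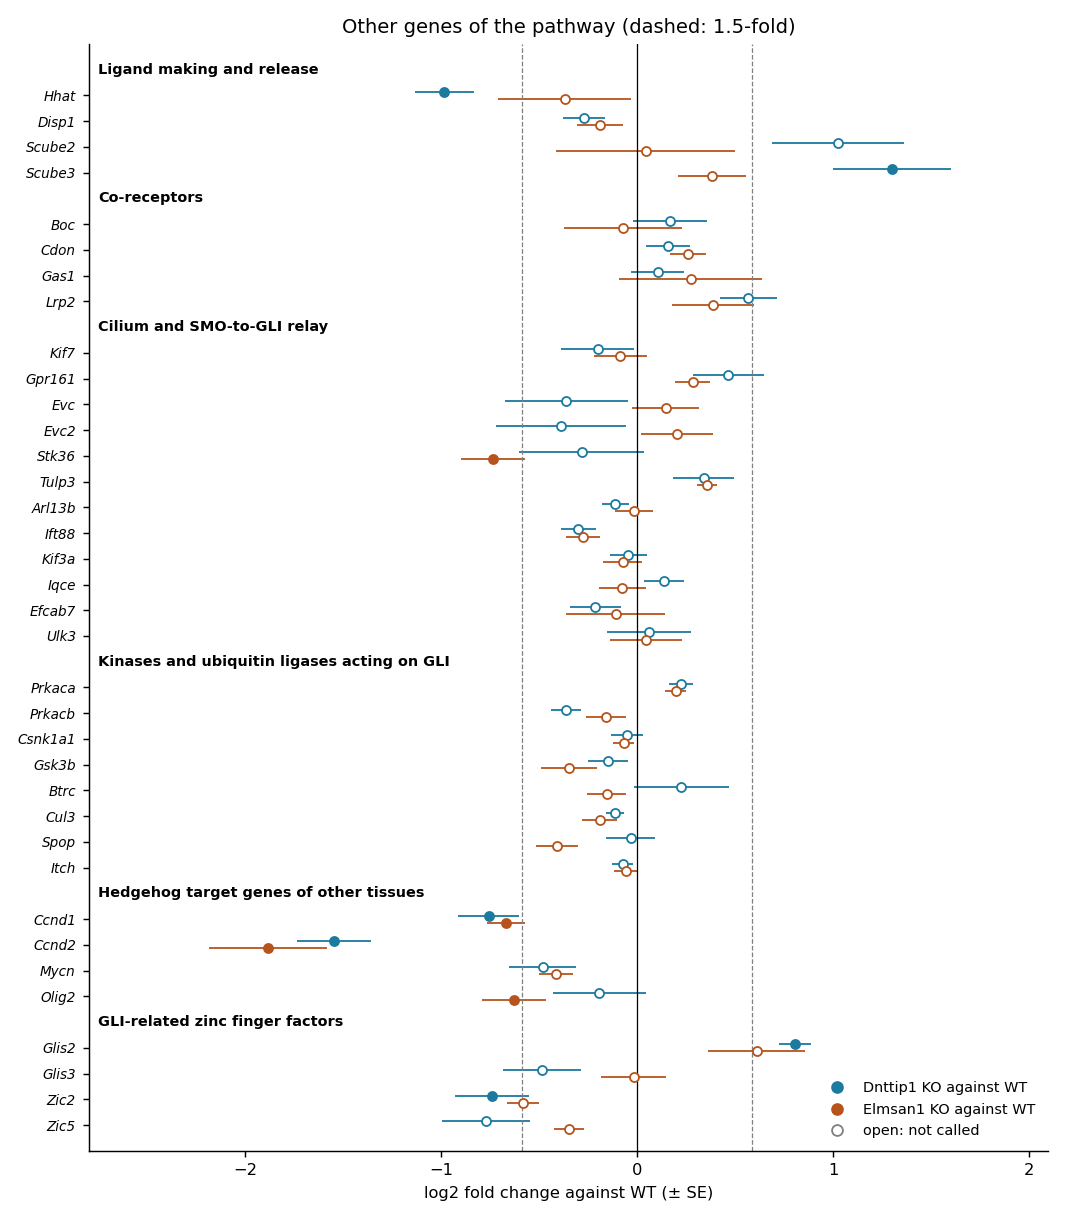
Log2 fold change against WT, with its SE, of the other pathway genes tested in both knockouts, in 6 lists; filled points were called, open points were not, and dashed lines mark 1.5-fold. *Ccnd1* and *Ccnd2* were called lower in both knockouts, and none of the 8 kinase and ubiquitin ligase genes was called.

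Markers of other cell types moved as well, in both directions. *Nes*, a neural progenitor marker, was at 4.14 and 4.19 FPKM in WT and rose by 1.30 on the log2 scale in *Dnttip1* KO (adjusted p = 0.0178) and by 0.80 in *Elmsan1* KO (adjusted p = 0.0636). In E2E8 the rise of *Nes* was 0.51, below 1.5-fold. *Map2*, a neuron marker listed as *Mtap2*, was called lower in *Dnttip1* KO (-1.05, adjusted p = 0.00999). Its change in *Elmsan1* KO was -0.39 (adjusted p = 0.203). *T*, the gene of the mesoderm factor Brachyury, was at 0.662 and 0.519 FPKM in WT and at 0.319 FPKM or less in every KO library, and was called lower in both knockouts (-1.16 and -0.95) and in all 4 clones, as *Hhip* was. *Eomes*, also a mesoderm marker, was called higher in *Elmsan1* KO (0.70, adjusted p = 0.00905). The summed level of the 6 primitive endoderm markers was 1.44 and 1.55 FPKM in D2A7, 1.05 and 1.14 in WT and 0.684 to 0.868 in the other clones, with no marker at 1 FPKM. Most of the D2A7 sum was *Gata4*, which was called higher in that clone (0.78). The other endoderm marker called in D2A7 was *Sox7*, which was lower (-0.87). The summed level of the 5 neuro-ectoderm and neuron markers was 84.3 and 87.0 FPKM in D2A7, 59.5 and 66.1 in WT, 94.7 and 95.3 in D1E6, 51.5 and 53.6 in E2E8 and 97.3 and 97.5 in E2G7, most of it *Tubb3*. *Pax6*, a defining gene of neural progenitors, was under 0.1 FPKM in every line. The 6 mesoderm and node markers summed to 2.52 and 2.88 FPKM in D2A7, 3.51 and 4.04 in WT and 4.01 to 4.41 in the other clones. Most of this sum in the clones was *Eomes*, called higher in D1E6 (0.76), E2E8 (0.72) and E2G7 (0.67). In these clones *T* was called lower, as stated above, and *Mixl1* and *Foxj1* lay below WT without a call. The sum thus followed *Eomes* there and not the other markers tested. In bulk RNA, fewer cells of a type and less RNA per cell cannot be told apart, and the part of these markers in the results was not tested.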

How the data were processed

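Total RNA was sequenced as stranded, paired libraries, mapped by the authors to NCBIM37 with the StrongArm pipeline and counted per gene with HTSeq. The deposited values are FPKM. The submitters' processing notes name edgeR 3.16.5, limma and R 3.3.1. The sources used here name a GENCODE release whose match to the table was not established, and positions come from the GENCODE vM1 annotation, which holds 97.2% of the 34591 identifiers. Each library was divided by its median ratio over 11270 genes. Genes with at least 0.1 FPKM in 2 libraries entered limma 3.58.1 (R 4.3.3, variance trend, two-sided) as log2(FPKM + 0.1), with Benjamini-Hochberg adjustment over all genes tested. Knockouts were compared 4 libraries against 2, and 9 comparisons were made in all, clones being compared in a fit of all 10 libraries. Whole fragments were recovered from the FPKM steps (98.1% to 98.4% whole within 0.02 of a step) for voom. The scripts were tested on simulated data. Pathway genes outside the 9 were named if they had a mean of at least 1 FPKM and were called in a knockout, and the text marks those chosen otherwise. The members and lists were chosen with earlier results of these data known, and a few genes of the lists are not reported here. Alternatives were other scalings, filters, pseudocounts, models, a replicate block and leaving out each library. Tables and figures were made with Python 3.11.15, pandas 2.3.3 and matplotlib 3.10.9.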

Additional observations from a re-analysis of the deposited data

Results flagged for a closer look

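Genes were called between clones of the same knockout in 3 cases, by the test of the difference between clones in limma. Of all genes, 13.1% were called between D2A7 and D1E6 and 12.5% between E2E8 and E2G7. *Gli1* differed by -0.85 on the log2 scale between D2A7 and D1E6 (adjusted p = 4.42e-05), with both D2A7 libraries below both D1E6 libraries. *Smo* differed by -1.05 between D2A7 and D1E6 (adjusted p = 5.36e-06). *Smo* also differed by 1.35 between E2E8 and E2G7 (adjusted p = 3.78e-06). A Dixon outlier test within each knockout (critical value 0.829) marked no library in the 18 groups of 4 libraries checked. Where the clones of a knockout split, as for *Smo*, this test cannot mark a library, because each has the other library of its clone close by.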

How the results depend on the processing

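Of the genes called among the 7, *Dnttip1* KO kept 1 instead of 2 with a pseudocount of 1, with genes of a mean of at least 1 FPKM and with the correlation within clones, and 1 to 2 when a library was left out. It had 3 with chromosome medians centred (*Smo* added, -0.98), as did D1E6 (*Smo* added, -0.70), while E2E8 lost *Smo* (0.33). *Elmsan1* KO and D1E6 had 1 with a mean of at least 1 FPKM. That filter leaves *Hhip* untested in every comparison, so its calls in D2A7, E2E8 and E2G7 are lost under it too. *Elmsan1* KO had 2 whichever library was left out. KO against KO had 1 by voom and 0 to 1 with a library left out. D2A7 against D1E6 had 1 with chromosome medians centred and 2 to 3 with a library left out. E2E8 against E2G7 had 2 with quantile normalization (*Gli3* added) and 2 by voom (*Ihh* added). Single calls were lost for *Gli2* in E2E8 with a pseudocount of 1 (-0.53) and for *Smo* in E2G7 with a pseudocount of 1 (-0.50) and quantile normalization (-0.57), and *Gli3* gained one between D2A7 and D1E6 with quantile normalization (-0.64). Voom and the filter of 10 fragments were chosen after seeing the data. Directions reversed, in uncalled genes, as follows. For *Sufu*, *Dnttip1* KO gave 0.017 on FPKM as deposited, 0.0097 with chromosome medians centred, and -0.028 to 0.026 with a library left out, and D2A7 gave -0.11 to 0.00079 with a library left out. For *Smo*, *Elmsan1* KO gave -0.30 with chromosome medians centred, -0.0073 by voom, and -0.19 to 0.27 with a library left out. With a library left out, KO against KO gave -0.017 to 0.14 for *Gli2* and -0.19 to 0.013 for *Gli3*, and D1E6 gave -0.078 to 0.0070 for *Gli1*. Between D2A7 and D1E6, *Ptch1* gave 0.031 with chromosome medians centred, and -0.051 to 0.038 with a library left out, and *Hhip* gave -0.0019 as deposited, -0.23 with quantile normalization, -0.00065 by voom, and -0.062 to 0.075 with a library left out. Between E2E8 and E2G7, *Ptch1* gave -0.013 with quantile normalization. Deviations of libraries of the same number correlated at -0.19 to 0.33 over 10 pairs of lines, highest for D2A7 with E2E8. With 2 libraries a line, these values cannot settle whether the numbers pair the libraries. With the replicate block, the calls stood at 2 in each knockout. The cause of these changes was not tested. With 2 libraries a line and 2 clones a knockout, effects of a clone and of its knockout cannot be told apart beyond what both clones share.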
